A study of Mus musculus with 18 samples.

Results

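Interleukin and chemokine genes encode the secreted signals by which immune cells and the cells of a tissue call, steer and activate leukocytes, and they were examined here in cultures of mouse cortical neurons. Members were taken by symbol from RefSeq GRCm38, as protein-coding genes named Il plus digits and not followed by r, or with names starting Ccl, Cxcl, Xcl1 or Cx3cl1. This gave 81 genes, of which 80 lie on a chromosome (42 with an interleukin symbol and 38 with a chemokine symbol) among 21774 nuclear protein-coding genes. The remaining gene, Ccl21c, lies on a scaffold and was not placed. The symbol rule also takes 4 genes that do not encode an interleukin ligand, namely Il6st, Il4i1, Il4i1b and Il18bp.

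The data are ATAC-seq, in which the transposase Tn5 inserts sequencing adapters into accessible DNA. Primary cortical neurons came from CD1 mouse embryos, were cultured with the mitotic inhibitor cytosine arabinoside, received lentiviral short hairpin RNAs, and were harvested on day 11. The 18 samples form 4 groups, all of which carry a pair of hairpins. The shCtrl_shATF4 group has 3 samples, the shOpa1_shATF4 group 5, the shOpa1_shScrambled group 5 and the shCtrl_shScrambled group 5. Opa1 is the inner-membrane fusion GTPase whose loss stresses mitochondria, and Atf4 is the factor through which cells under stress switch on genes of amino acid supply. The file analysed holds a single consensus list of peaks, without a value for any sample or group, so the knockdowns are not compared here. Every value below describes that list and has no replicate error.

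Interleukins act through paired receptor chains that signal mostly by JAK kinases and STAT factors, or, in the IL-1 and IL-17 families, by adaptors that lead to NF-kB. Chemokines bind receptors coupled to G proteins and guide the migration of cells. In the brain most of these genes are quiet at rest, while a few serve contact between neurons and microglia. Fractalkine, the product of Cx3cl1, sits on the neuronal membrane and binds Cx3cr1 on microglia, IL-34 from neurons sustains microglia through Csf1r, and Cxcl12 guides migrating neurons through Cxcr4.

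The list holds 211682 peaks (mm10), and the depth of the libraries behind it is unknown. The authors' score stands at its ceiling of 1000 for 98.5% of them and ranks nothing. All 10 neuronal marker genes had a peak at an end, the widest of each between 585 bp (Dcx) and 2184 bp (Syp). Among markers of other cells the count was 7 of 12 for microglia, 5 of 7 for astrocytes, 3 of 5 for endothelium and 2 of 7 for leukocytes, where 70.4% of all protein-coding genes had one, and those without included Aif1, P2ry12, Trem2, Tyrobp, Aqp4, Pecam1 and Ptprc. A peak at a marker does not identify a cell type, and in a bulk culture few accessible cells of a type and weak access in many cells cannot be told apart.

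Of the 80 placed interleukin and chemokine genes, 39 (48.75%, exact Clopper-Pearson 95% interval 37.4 to 60.2%) had a peak with any base within 1000 bp of either outermost end, against 70.4% of all nuclear protein-coding genes. By class these were 18 of 42 interleukin genes (42.9%, interval 27.7 to 59.0%) and 21 of 38 chemokine genes (55.3%, interval 38.3 to 71.4%). The chemokine interval includes the 70.4% of all genes. The intervals cover counting only, and genes are not replicates. Peaks of at least 500 bp stood at the ends of 22 members (27.5%), against 63.2% of all genes. Among the 39, the widest end peak had a median width of 563 bp, against 1133 bp over all genes with an end peak. When peaks also lying within 1000 bp of another coding gene's end were left out, 33 members (41.25%) kept an end peak, against 57.5% of all genes. Members are short, with a median length of 5290 bp against 17219 bp. Among genes under 10 kb, 25 of 59 members (42.4%, interval 29.6 to 55.9%) had an end peak. The share of all such genes, 53.4%, lies inside that interval. The gene with 10 kb on either side held a peak for 65 members (81.25%), against 85.5% of all genes. Among genes under 10 kb the order was the other way, with 46 of 59 members (78.0%) against 70.5% of all such genes. Over that window members had a median of 3 peaks, 0.859 peaks per 10 kb and 3.92% of the sequence covered, against 5 peaks, 1.02 peaks per 10 kb and 6.03% for all genes.

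**Figure D1:**
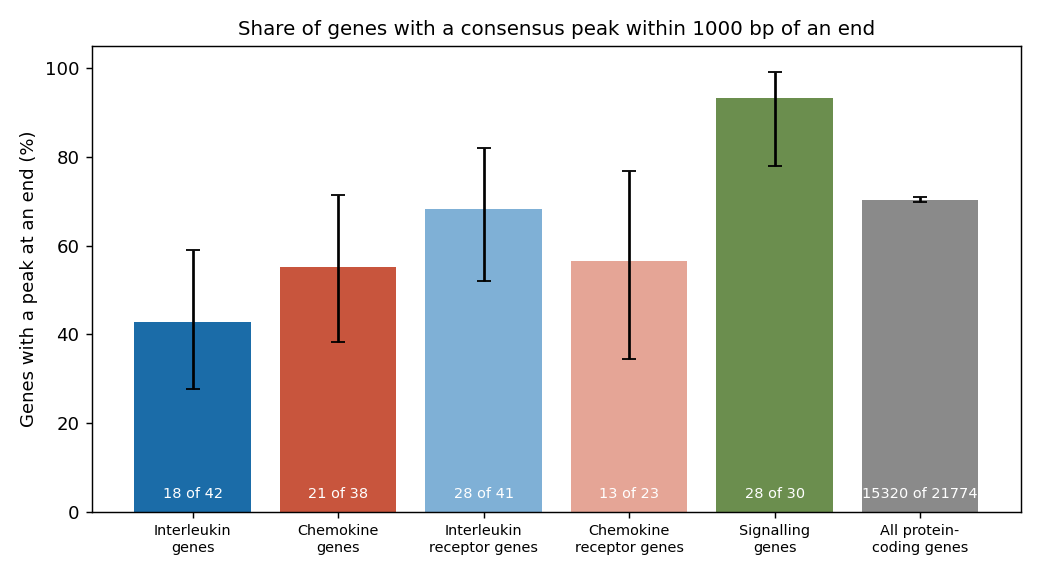
Percentage of genes with a consensus peak within 1000 bp of either end, for interleukin and chemokine genes, their receptors, signalling genes and all protein-coding genes. Error bars are exact 95% intervals for counting alone, and the counts stand in the bars. Interleukin genes are at 42.9%, chemokine genes at 55.3% and all genes at 70.4%.

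The 39 genes had 58 distinct end peaks, of 135 to 1896 bp. Their median width was 449.5 bp, against 784 bp for the 22502 peaks at an end of any coding gene. Of the 58, 9 also lay at the end of a coding gene outside the families, and 2 lay at the ends of a pair of members, namely Ccl3 with Ccl4 and Il4i1 with Il4i1b. The score was below the ceiling for 2 of them, a peak of 275 bp inside Il12a and one of 268 bp near the far end of Il17d. Members just within the 1000 bp limit were Ccl1, Ccl24 and Ccl20, whose nearest peaks lay 992, 980 and 972 bp from an end. Just beyond it were Il19, Ccl26 and Il1a at 1035, 1085 and 1138 bp.

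**Figure D2:**
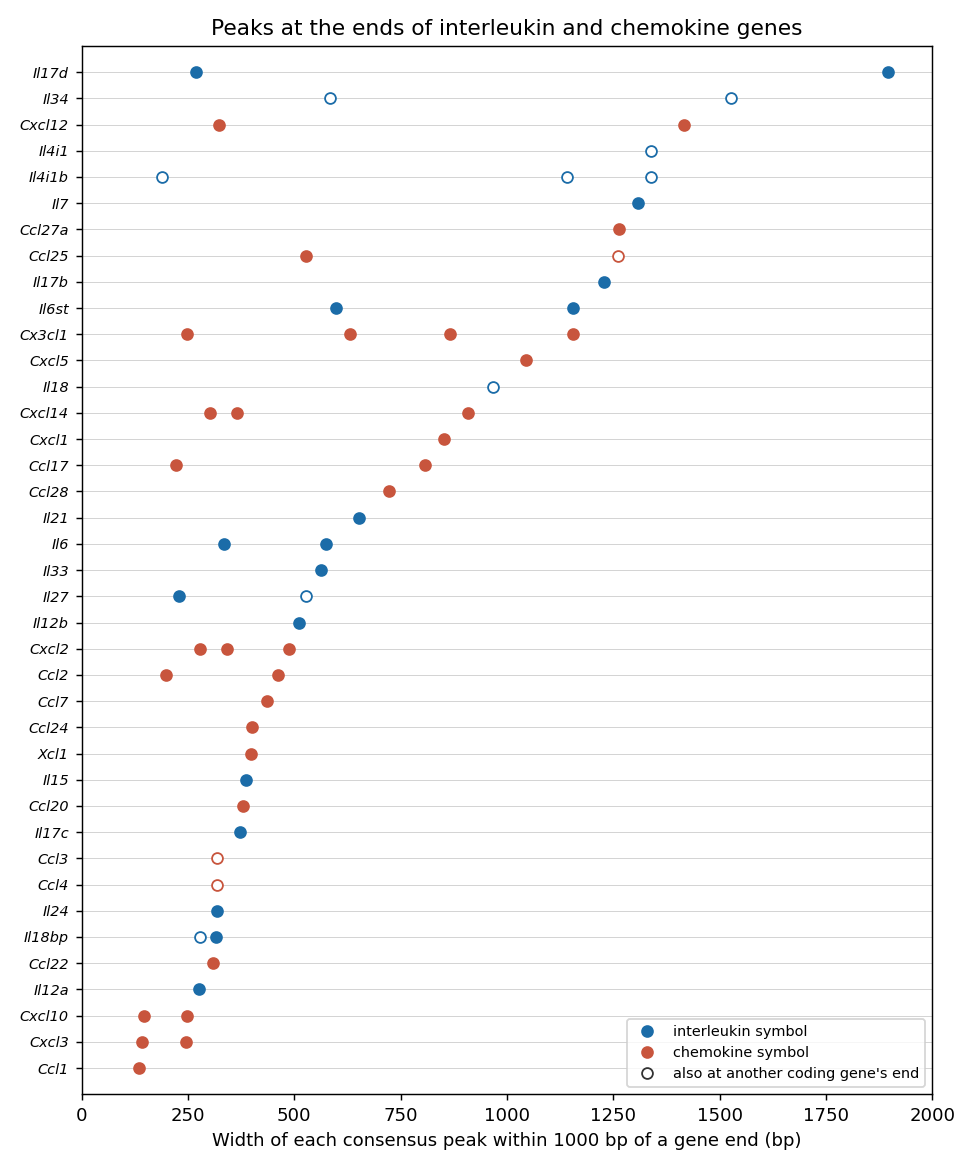
Width in bp of each consensus peak within 1000 bp of an end, for the 39 interleukin and chemokine genes that have one, ordered by their widest. Points are single peaks, and open points also lie at another coding gene's end. Il17d reaches 1896 bp, and the widest peaks at Cxcl10, Cxcl3 and Ccl1 stay under 250 bp.

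Strand and transcription start came from RefSeq promoters (GRCm38.p6), which held 60 of the 80 members. Sequence before the start is shown first for members whose start lay under a wide peak (Cx3cl1, Cxcl12, Il17d, Cxcl14 and, as one poor in CpG, Il18) and for the inflammatory cytokine gene Il1b and the T cell growth factor gene Il2, which had no peak within 1000 bp of an end. Each line gives the 150 bases before the start, 5′ to 3′ on the gene's strand, with every CpG dinucleotide in capitals.
Cx3cl1 (chr8:94772030-94772179, plus strand): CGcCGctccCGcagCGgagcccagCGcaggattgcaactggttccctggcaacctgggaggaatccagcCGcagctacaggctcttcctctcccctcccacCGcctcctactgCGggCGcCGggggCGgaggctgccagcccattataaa
Cxcl12 (chr6:117168385-117168534, plus strand): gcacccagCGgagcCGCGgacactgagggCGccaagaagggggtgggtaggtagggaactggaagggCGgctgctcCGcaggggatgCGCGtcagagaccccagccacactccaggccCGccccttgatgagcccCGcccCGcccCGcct
Il17d (chr14:57524679-57524828, plus strand): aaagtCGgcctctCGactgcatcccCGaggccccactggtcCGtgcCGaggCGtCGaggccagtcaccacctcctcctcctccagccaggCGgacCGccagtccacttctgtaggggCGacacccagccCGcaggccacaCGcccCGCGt
Cxcl14 (chr13:56296552-56296701, minus strand): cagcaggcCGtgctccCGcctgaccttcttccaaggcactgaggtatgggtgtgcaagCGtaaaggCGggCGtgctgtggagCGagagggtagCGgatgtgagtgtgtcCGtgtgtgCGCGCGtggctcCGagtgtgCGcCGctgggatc
Il18 (chr9:50554550-50554699, plus strand): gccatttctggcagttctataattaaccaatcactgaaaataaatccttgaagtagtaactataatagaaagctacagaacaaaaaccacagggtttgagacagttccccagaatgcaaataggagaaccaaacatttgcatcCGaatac
Il1b (chr2:129371140-129371289, minus strand): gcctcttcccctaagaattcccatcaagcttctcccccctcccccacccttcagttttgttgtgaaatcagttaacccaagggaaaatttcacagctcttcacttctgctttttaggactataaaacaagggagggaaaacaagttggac
Il2 (chr3:37125955-37126104, minus strand): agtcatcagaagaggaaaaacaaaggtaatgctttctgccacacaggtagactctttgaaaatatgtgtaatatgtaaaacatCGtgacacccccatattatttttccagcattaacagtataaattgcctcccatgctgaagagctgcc
The first 4 held 11, 12, 14 and 14 CpG in these 150 bases, Il18 held 1 although its start lay under 967 bp, and Il1b and Il2 held 0 and 1.

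Cx3cl1 had the most end peaks of any member, with 4. Its start (chr8:94772180, plus strand) lay under a peak of 866 bp, from 94771910 to 94772775. A peak of 248 bp began 621 bp downstream, and one of 1154 bp began 876 bp downstream, at 94773056, and ended at 94774209. The fourth, of 630 bp, lay inside the gene by its far end, where the noncoding gene Gm51543 also has an end. None of the 4 lay at another coding gene's end. With 3 further peaks in the flanks the window held 7, and 14.2% of it was covered. The gene stands between Ccl22 and Ccl17, whose products both bind Ccr4. Ccl22 had 1 end peak, of 308 bp, which ended 836 bp before its start. Ccl17 had 2, of 222 bp inside the gene and of 807 bp beyond its far end. Before the gene lay a peak of 318 bp, ending 1503 bp from it. Beyond that came a run of 5 peaks, the nearest ending 5514 bp and the farthest 8689 bp from the gene.

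**Figure D3:**
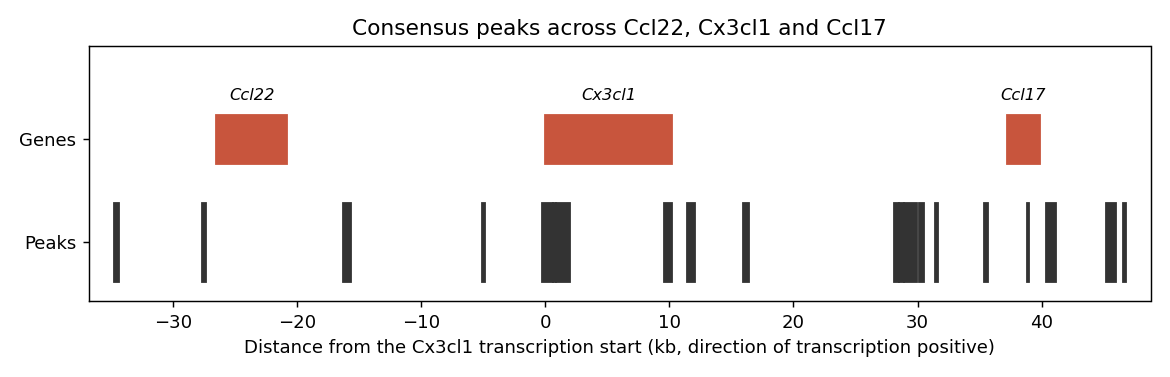
Consensus peaks (dark blocks, to scale) and the genes Ccl22, Cx3cl1 and Ccl17, by distance in kb from the Cx3cl1 transcription start. Of the 20 peaks drawn, 3 follow closely on each other from the Cx3cl1 start onward, and a second dense run lies before Ccl17.

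Cxcl12, the ligand of Cxcr4, had a peak of 1416 bp over its start (chr6:117168200-117169615) and one of 322 bp lying 362 bp upstream. Cxcl14, a chemokine made by many epithelia and some neurons, had 908 bp over its start (chr13:56296026-56296933), 365 bp next to it inside the gene, 303 bp near its far end and 9 peaks in its window. The other CXC chemokine genes of this kind, Cxcl13, which attracts B cells, and Cxcl17, had none at an end. Nor did Cxcl16, the second membrane-anchored chemokine gene, with 2 peaks in its window, the nearest 1799 bp from an end.

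The CXC chemokines that attract neutrophils through Cxcr2 form a cluster on chromosome 5, and 4 of 5 had end peaks. Cxcl5 had 1045 bp over its lower-coordinate end (chr5:90758933-90759977). Cxcl1 had 853 bp over its start (chr5:90890764-90891616) and 7 peaks in its window. Cxcl2 had 488 bp over its start with 343 and 278 bp upstream, and Cxcl3 had 143 bp beginning 4 bp after its start and 245 bp upstream. Cxcl15 had none. Of the interferon-induced ligands of Cxcr3, Cxcl10 had 248 bp over its start and 146 bp inside the gene, and Cxcl9 had none at an end.

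Of 13 inflammatory CC chemokine genes, 6 had an end peak, and none of those was as wide as 500 bp. Ccl2, which recruits monocytes through Ccr2, had 462 bp over its lower-coordinate end, a second of 198 bp inside the gene and 8 peaks in its window. Its neighbour Ccl7 had 437 bp over an end. The eosinophil chemokine gene Ccl24 had 401 bp outside the gene, the macrophage inflammatory protein genes Ccl3 and Ccl4 shared 319 bp lying 130 bp before the Ccl3 start, and Ccl1 had 135 bp by its far end. Ccl5, Ccl6, Ccl8, Ccl9, Ccl11, Ccl12 and Ccl26 had no end peak, although Ccl26 had 5 peaks in its flanks. Xcl1, a lymphocyte chemokine gene, had 399 bp beyond its far end.

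Among the 11 placed CC chemokine genes with homeostatic or mixed roles, 6 had an end peak. Ccl27a, a skin chemokine gene, had 1263 bp over its start (chr4:41773469-41774731). Ccl25, which acts in thymus and gut, had 1262 bp over its outermost listed start (chr8:4324511-4325772) and 527 bp by its far end. The peak of 1262 bp also lies at an end of Elavl1. A further start listed inside Ccl25 had no peak within 1000 bp. Ccl28, a mucosal chemokine gene, had 723 bp beyond its far end and 10 peaks in its window, while Ccl20, the Ccr6 ligand gene, had 379 bp that began 972 bp after its start. Together with Ccl17 and Ccl22 these are the 6. Ccl19, Ccl21a, Ccl21b, Ccl21d and Ccl27b all lay in one stretch of 1023 kb on chromosome 4 (41847734 to 42870776) without a single peak, which holds 17 protein-coding genes. Some of these genes are copies of each other. The promoters of Ccl21a and Ccl21d were identical at 99.3% of 299 bases. The listed promoters of Ccl21a and Ccl21b matched at only 38.0% of 121 bases, and those of Ccl19 and Ccl21a at 36.2% of 138 bases. For Ccl27a and Ccl27b an alignment without gaps gave 68.2% of 239 bases. That value understates their likeness, because an extra base in Ccl27b puts otherwise matching bases out of register. The treatment of reads that match more than 1 copy is not known here, so the values of these 5 genes and of Ccl27a are uncertain, and the part of the copies in the missing peaks was not tested. Without the Ccl19, Ccl21 and Ccl27 genes, 20 of 32 chemokine genes (62.5%) had an end peak.

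Il17d had the widest end peak of all members, 1896 bp over its start (chr14:57524461-57526356). Its window held 9 peaks, 8 of which touched the gene, and 15.6% of it was covered. In the same family of 6, Il17b had 1227 bp over its upper-coordinate end (chr18:61691750-61692976), where the noncoding gene Gm38165 also has an end. Il17c had 372 bp ending 28 bp before its start. Il17a and Il17f, the cytokine genes of Th17 cells, and Il25 had none at an end, and Il17a had none within 10 kb.

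Il34 had the most peaks in its window, 20, of which 13 touched the gene. Its lower-coordinate end lay under 1527 bp (chr8:110741305-110742831) with 585 bp beside it, and both peaks also lie at an end of Mtss2, so the list does not show which gene they belong to. Of the 9 genes of the IL-1 family, Il18 and Il33 had an end peak. Il18 had 967 bp over its start (chr9:50554340-50555306), a peak also at an end of Bco2, and the alarmin gene Il33 had 563 bp over its start. Il1a, Il1b and the 5 genes of the chromosome 2 cluster from Il1f8 to Il1f10 had none. Il1f5 of that cluster encodes an antagonist.

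Of the genes whose products signal through the common gamma chain, with Il13, 3 of 7 had an end peak. The lymphocyte survival factor gene Il7 had 1309 bp over its upper-coordinate end (chr3:7612478-7613786), where the noncoding Gm16685 also has an end. Il21 had 651 bp inside the gene 891 bp after its start, and Il15 had 386 bp inside the gene by its lower-coordinate end. Il2, Il4, Il9 and Il13 had none. Il3 and Il5, which share the beta chain, had none either. In the IL-6 and IL-12 families, 4 of 7 had one. Il6 had 575 bp over its start (chr5:30013081-30013655) and 334 bp directly upstream. Il27, a subunit gene of IL-27, had 528 bp at an end of Apobr too and 229 bp of its own, Il12b had 511 bp upstream of its start, and Il12a had the 275 bp peak given above. Il11, Il23a and Il31 had none at an end, but RefSeq lists another start inside Il11, which lay under a peak of 451 bp. Il24, of the IL-10 family, had 318 bp inside the gene and 6 peaks in its window, and Il10, Il19, Il20 and Il22 had none at an end. Il16, cut from a longer precursor that has a neuronal form, had 11 peaks inside its 103210 bp and none at its outermost ends, and 1 of 314 bp lay over one of its 3 listed starts. Il25 had 5 peaks in its flanks and none closer than 1713 bp to an end.

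All 4 genes with an interleukin symbol that do not encode a ligand had an end peak, where 70.4% of all protein-coding genes had one. Every end peak of Il4i1 and Il4i1b also lay at an end of another coding gene. Il6st, which encodes gp130, the signalling chain shared by IL-6 and IL-11, had 1155 bp over its start (chr13:112463510-112464664) and 598 bp beyond its far end. Il4i1, an L-amino acid oxidase gene, and the overlapping gene model Il4i1b shared 1338 bp (chr7:44839137-44840474) with an end of Tbc1d17. The start of Il4i1b lay under 1140 bp (chr7:44815633-44816772) that also stand at ends of Atf5 and Nup62. Il18bp, the gene of a soluble inhibitor of IL-18, had 315 bp inside the gene and 278 bp that also stand at an end of Numa1.

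No peak fell in the gene or its 10 kb flanks for 15 members. They are the interleukin genes Il1f5, Il1f6, Il1f8, Il5, Il17a, Il20 and Il22 and the chemokine genes Ccl6, Ccl8, Ccl12, Ccl19, Ccl21a, Ccl21b, Ccl21d and Ccl27b. Another 26 members had a peak in that window but none at an end. Over the 41 members without an end peak, the nearest peak lay a median of 5975 bp from an end.

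Members lie close together, and 50 of them fall into 16 clusters in which each member is within 200 kb of the next. In clusters 20 of 50 (40.0%) had an end peak, and outside them 19 of 30 (63.3%), both below the 70.4% of all protein-coding genes. Peak density differed widely between clusters. Each density counts all peaks in the span, also those near genes outside the families. Il4i1b with Il4i1 spans 5 coding genes, Cxcl14 with Il9 spans 3 and Cxcl5 to Cxcl2 spans 7, not all of them members. The span from Ccl2 to Ccl1 holds members only. The IL-36 cluster from Il1f8 to Il1f10 held 2 peaks in 141 kb (1.42 per 100 kb), and Il17a with Il17f held 1 in 54.4 kb (1.84 per 100 kb). The nuclear chromosomes averaged 7.95 peaks per 100 kb. The Th2 cluster from Il4 to Il5 held 6 peaks (5.33 per 100 kb), the cluster from Il24 to Il10 held 6 (4.20 per 100 kb) and that from Ccl5 to Ccl4 held 8 (5.76 per 100 kb). The stretch from Ccl27b to Ccl21a held none. Of the 16 clusters, 9 stood above the average. Among the chemokine clusters these were those from Ccl2 to Ccl1 with 15 peaks (10.4 per 100 kb), from Cxcl5 to Cxcl2 with 19 (13.0 per 100 kb), from Cxcl9 to Cxcl10 with 4 (14.5 per 100 kb), from Ccl22 to Ccl17 with 15 (22.6 per 100 kb) and from Ccl26 to Ccl24 with 3 (23.7 per 100 kb). The others were Il4i1b with Il4i1 (32.7 per 100 kb), Cxcl14 with Il9 (18.1 per 100 kb), Il2 with Il21 (9.83 per 100 kb) and Il1a with Il1b (9.78 per 100 kb).

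Of the 60 members with a listed start, 25 (41.7%) had a peak within 1000 bp of one, against 68.0% of all genes with a listed start, and 16 (26.7%) had a peak over the start base, against 62.5%. Ccl1, Ccl28, Il12a, Il4i1 and Xcl1 had an end peak but none at a listed start.

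**Figure D4:**
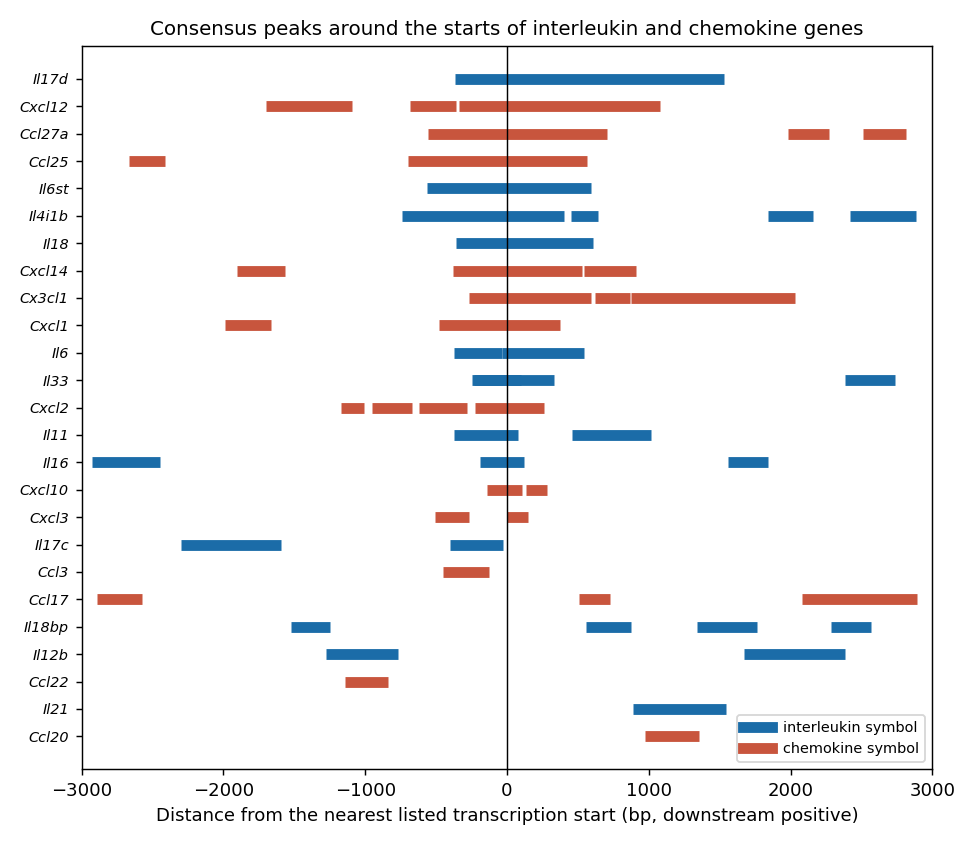
Consensus peaks within 3000 bp of a listed transcription start, for the 25 members with a peak within 1000 bp of one. Each bar is a peak to scale, placed by its distance from the listed start nearest to it, with downstream to the right. In 16 members a peak crosses the start, and Cx3cl1 has 3 peaks in close order from its start onward.

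Promoters of members were poor in CpG. Over the 300 bases from 250 before to 50 after the outermost listed start, members had a median of 4 CpG and 49.3% GC, against 13 CpG and 56.3% GC for all protein-coding genes. By that start alone, 23 of 60 members (38.3%) had a start peak, against 66.7% of all genes. Il11 and Il16, whose start peaks lie at inner starts, are not among the 23. Genes were then divided by CpG content, and in both sets the share with a start peak was lowest in the class poorest in CpG. With 0 to 4 CpG, 6 of 35 members (17.1%) had a start peak, against 16.8% of all genes. With 5 to 9 CpG it was 5 of 11 members (45.5%), against 52.1%. With 10 to 19 CpG it was 7 of 8 members (87.5%), against 90.8%, and with 20 or more 5 of 6 members (83.3%), against 98.4%. The exception in the last class was Ccl21b, of the stretch without peaks. The class with 0 to 4 CpG held 58.3% of members and 29.1% of all genes. The difference between the families and other genes within these classes was not tested.

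**Figure D5:**
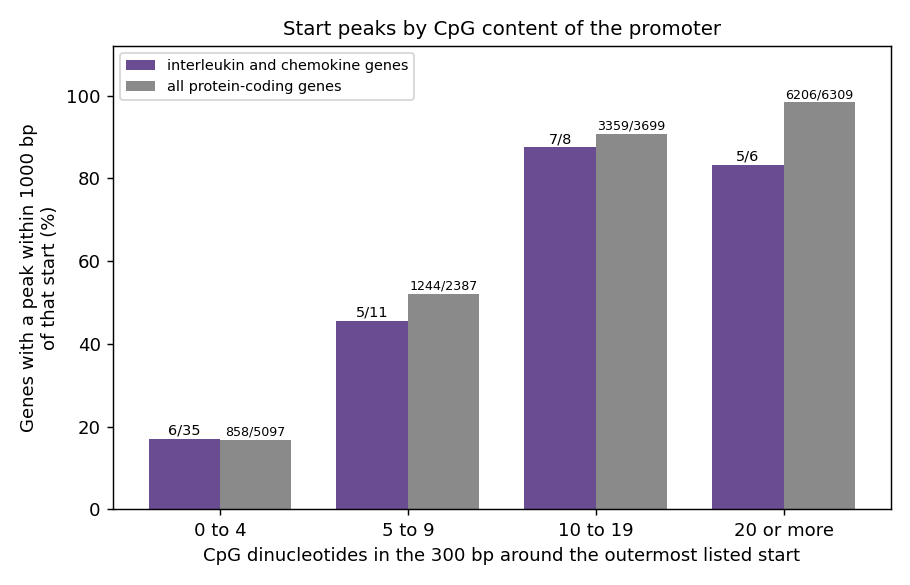
Percentage of genes with a consensus peak within 1000 bp of their outermost listed start, by the number of CpG in the 300 bases around it, for members (left bars) and all protein-coding genes (right bars). Counts stand above the bars. Members are at 17.1% in the class poorest in CpG, against 16.8% of all genes.

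The same 300 bases were searched on both strands for 6 words, each without regard to overlap with the others. TATAAA stood in 18 of 60 member promoters (30.0%), against 13.3% of all promoters, and the GC box GGGCGG in 12 of 60, against 46.3%. The AP-1 word TGANTCA stood in 10 (16.7%), against 7.03%, and the C/EBP word TTGCNNAA in 10 (16.7%), against 10.1%. The word TGATGNAAT, bound by ATF4 with C/EBP factors, stood in 1 (1.67%), against 0.818%. That promoter was Ccl27a, where TGATGTAAT began 10 bases before the start, under the peak of 1263 bp. The NF-kB consensus stood in 8 (13.3%), against 4.57%. It was in 6 of 23 members with a start peak (26.1%) and 2 of 37 without (5.41%). All promoters gave 5.28% with a start peak and 3.14% without. The GC box split the same way, in 30.4% of members with a start peak and 13.5% without, against 64.0% and 10.9% of all promoters. The only TGATGNAAT match was in a member with a start peak, while all promoters gave 0.48% with and 1.49% without. Among members the split ran the other way for TGANTCA, in 2 of 23 with a start peak (8.7%) and 8 of 37 without (21.6%). So it did for TTGCNNAA (13.0% with, 18.9% without) and TATAAA (21.7% with, 35.1% without). All promoters split in that direction too. They gave 4.87% with and 11.4% without for TGANTCA, 7.82% and 14.8% for TTGCNNAA, and 7.42% and 25.2% for TATAAA. A match describes these letters and is not evidence of a bound factor.

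The 6 members with a start peak and an NF-kB match are Cxcl1, Cxcl2, Cxcl3, Cxcl10, Il6 and Ccl20. Sequences are shown for 5 of these. Ccl20 is not shown, and its nearest peak began 972 bp after its start. Each line is the 150 bases before the start, 5′ to 3′, with NF-kB consensus matches in capitals.
Cxcl1 (chr5:90891095-90891244, plus strand): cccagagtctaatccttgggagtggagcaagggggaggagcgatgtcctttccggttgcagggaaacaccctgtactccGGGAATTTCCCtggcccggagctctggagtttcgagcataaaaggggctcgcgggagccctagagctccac
Cxcl2 (chr5:90903749-90903898, plus strand): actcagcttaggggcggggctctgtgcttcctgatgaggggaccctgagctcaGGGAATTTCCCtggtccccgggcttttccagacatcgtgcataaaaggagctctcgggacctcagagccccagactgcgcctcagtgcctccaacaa
Cxcl3 (chr5:90785951-90786100, plus strand): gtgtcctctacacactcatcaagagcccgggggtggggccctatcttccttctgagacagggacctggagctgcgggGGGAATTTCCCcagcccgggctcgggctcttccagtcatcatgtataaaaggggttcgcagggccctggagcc
Cxcl10 (chr5:92348890-92349039, minus strand): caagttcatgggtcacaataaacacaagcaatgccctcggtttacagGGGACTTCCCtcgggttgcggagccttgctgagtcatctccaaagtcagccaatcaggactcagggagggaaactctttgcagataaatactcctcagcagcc
Il6 (chr5:30012964-30013113, plus strand): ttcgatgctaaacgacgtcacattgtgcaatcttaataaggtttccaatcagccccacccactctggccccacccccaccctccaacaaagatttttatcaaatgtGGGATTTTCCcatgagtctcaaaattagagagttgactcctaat
Cxcl1, Cxcl2 and Cxcl3 share the letters GGGAATTTCCC, in which the consensus matches at adjacent bases. The matches at Cxcl1 and Cxcl2 and the one shown at Cxcl10 lay wholly under the start peaks of 853, 488 and 248 bp. At Il6 the match began 44 bases before the start and lay in part under the upstream peak of 334 bp, and at Cxcl3 it lay between its 2 peaks. A further Cxcl10 match, 159 bases before the start, lay outside any peak, as did the Ccl20 match.

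The genes that receive and pass on these signals were counted in the same way. Of 64 receptor genes by symbol, 41 (64.1%) had an end peak, 28 of 41 with interleukin receptor symbols (68.3%) and 13 of 23 with chemokine receptor symbols (56.5%), against the 70.4% of all genes. The receptor list goes by symbol alone, so it also takes the antagonist gene Il1rn, which had none, and the receptor-like genes Il1rapl1 and Il1rapl2. At the latter pair the widest end peaks were 897 and 1113 bp. The widest end peaks of the receptor list stood at Il17rc (1683 bp), Il6ra (1553 bp) and Il3ra (1482 bp), and Ccr1, Ccr1l1 and Ccr2 were among those without. Of 30 genes of JAK-STAT and NF-kB signalling, 28 (93.3%) had one, the widest at Socs2 (2502 bp), Rel (1954 bp) and Socs1 (1929 bp), and Stat4 and Stat5b had none. Ligands and their receptors can be set side by side. Cx3cl1 had end peaks of up to 1154 bp and its receptor gene Cx3cr1 1 of 386 bp. Cxcl12 had 1416 bp, and its receptor genes Cxcr4 and Ackr3 had 1075 and 831 bp. Ccl2 had 462 bp, and Ccr2 had no peak within 10 kb. Il34 had 1527 bp, shared with Mtss2, and Csf1r had 461 bp. Il1b had none at an end, and its receptor gene Il1r1 had none at an end but 18 in its window.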

How the data were processed

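ATAC-seq of 18 samples in 4 groups was deposited as 1 consensus peak list, which gives positions, a name and a score for each peak and no value per sample. Per the submitters' processing notes, MACS2, deepTools and MultiQC were used with mm10, and the peak names carry MSPC, which merges peak calls of replicates. Not given in the sources used here: aligner, read filters, thresholds, and which samples were merged. The score the authors deposited was used only as a description. Other deposited columns are interval positions, printed 1-based.

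Genes came from RefSeq GRCm38.p6, the assembly of mm10. Of 49997 genes, 17 without a chromosome and 348 on scaffolds were left out. A gene counted if any base of a peak lay within 1000 bp of either outermost end, or within the gene and 10 kb flanks. Starts and sequences came from RefSeq promoters. Knockdown groups were not compared, because no counts per sample were used. Counts over members stand beside the same counts over all protein-coding genes, without a test. Members and lists were chosen with earlier results of these data known. Every member with an end peak is named, with full values for the 12 widest, for Cx3cl1 and for peaks of at least 800 bp over a start. The overlap code was tested on simulated data. Analyses ran in Python 3.11.15 with pandas 2.3.3, numpy 2.4.6, matplotlib 3.10.9 and scipy 1.17.1.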

Additional observations from a re-analysis of the deposited data

How the results depend on the processing

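No paired analysis was possible because the consensus list has no values per sample. Members stayed below all protein-coding genes in each end setting run over both, with 37.5% against 66.2% for windows of 500 bp, 62.5% against 77.0% for 2500 bp, 25.0% against 57.9% for a peak over the end base, and 27.5% against 63.2% for peaks of at least 500 bp. With a peak over the end base the counts were 20 members, 9 interleukin genes, 11 chemokine genes and 21 receptor genes. With peaks of at least 500 bp they were 22 members, 9 chemokine genes and 27 receptor genes, 43 members had a peak in their window, and the median per member was 1. That median was 1 with flanks of 2 kb and 10 with flanks of 50 kb. With flanks of 2 kb the share with a window peak was 65.0% of members against 80.3% of all genes. With 50 kb the order turned, at 93.75% of members against 92.0% of all genes. Start peaks numbered 16 over the start base and 15 at 500 bp or more. The other 39 of the settings run stayed within 1.5 times the count given. They include leaving out Il6st, Il4i1 and Il18bp, adding Il1rn, Pf4 and Ppbp, and keeping Ccl21c, for which the list has no scaffold. Chosen after seeing the data were the settings without Il4i1b and Il1f5, those without the Ccl19, Ccl21 and Ccl27 genes, and the counts among genes under 10 kb. The antagonist Il36rn is already a member, as Il1f5. The number of samples that a peak needed to be listed is unknown, so absence from the list does not show closed chromatin, and depth cannot be weighed.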
